A study of Mus musculus with 18 samples.

Results

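The genes described here are 50 mouse genes of the Wnt pathway, measured by bulk RNA sequencing in 6 groups of cultured cells from lung and heart. They comprised 13 Wnt ligands, 10 Frizzled receptors with the co-receptors Lrp5 and Lrp6, the alternative receptors Ror1 and Ror2, 10 secreted inhibitors, 5 genes of the R-spondin axis, 4 nuclear factors and 4 feedback targets. Members were taken by gene name from a list of Wnt genes, with no measured value in the rule, and all 50 had a row among the 35727 gene identifiers of the count table. A filter on low counts kept 42 of them among the 14864 genes tested. The 8 members that it removed were Wnt6, Wnt10a, Wnt16, Sfrp5, Dkk1, Wif1, Rspo2 and Lgr5, whose highest group mean was 0.791 on the counts-per-million scale (CPM, taken over the TMM-scaled library total).

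Each group had 3 libraries, all labelled day 7 and grown in EGM2, an endothelial growth medium. The groups were lung iECs, heart iECs, lung ECs, heart ECs, lung fibroblasts and heart fibroblasts. The labels do not spell out iEC, and the titles of those libraries carry the letters SEG, also unexplained. The ECs are called native in the design text, and the fibroblasts are titled as controls. Strain, genotype, age, sorting and the factors given to the iECs are not stated in the labels. The stated purpose of the comparison was how far the cells take on an endothelial identity typical of their organ. The labels do not say that replicates came from separate cultures or animals, so the p-values below reflect only how far these libraries differ, and that spread may be technical.

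Wnt proteins are secreted, lipid-bearing signals that bind Frizzled receptors. With Lrp5 or Lrp6 as co-receptor they stabilise β-catenin, which enters the nucleus and works with TCF and LEF factors, switching on feedback genes such as Axin2. Ligands such as Wnt5a act largely without β-catenin, through Ror receptors and cell polarity. The pathway is known for its part in the vessels of the retina and brain, and in the lung, whose formation needs Wnt2 and Wnt2b from mesenchymal cells.

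Total counts per library ranged between 17747632 and 23775372, and log-scale correlations between libraries of one group lay between 0.982 and 0.996. One count was worth 0.0605 CPM in the shallowest library and 0.0408 CPM in the deepest. The summed level of 10 endothelial markers was 1039.8 to 1141 CPM in lung iECs, 1235 to 1299 CPM in heart iECs, 2787 to 2850.2 CPM in lung ECs, 1767 to 1938 CPM in heart ECs, 24.9 to 28.5 CPM in lung fibroblasts and 255 to 285 CPM in heart fibroblasts. All endothelial markers but Cldn5 exceeded 1 CPM in both iEC groups, but so did all 10 in heart fibroblasts and 6 in lung fibroblasts. The markers did not move alike. Cdh5, the highest in iECs, had means of 465 CPM in lung iECs and 555 CPM in heart iECs, against 3.17 and 75.5 CPM in fibroblasts. Vwf had 3.73 CPM in lung iECs and 22.2 CPM in heart iECs, against 1.88 and 19.9 CPM in fibroblasts. In ECs Vwf had 195 CPM in lung and 276 CPM in heart. The 8 fibroblast markers were abundant everywhere, at 11017 to 14816 CPM in lung iECs, 17475 to 18999 CPM in heart iECs, 5603 to 6824 CPM in lung ECs, 19849 to 20822 CPM in heart ECs, 34880.3 to 42609 CPM in lung fibroblasts and 28408 to 29783 CPM in heart fibroblasts. The 7 macrophage and leukocyte markers summed to 2143 to 3567 CPM in lung iECs, 7088 to 9397 CPM in lung ECs and 952 to 1244 CPM in lung fibroblasts, and to at most 332 CPM in any heart library. Lyz2 made up most of this sum in every group. The part of the fibroblast or the macrophage and leukocyte markers in differences between cell types, or between lung and heart, was not tested. Sox17, an endothelial transcription factor, ranged between 429.7 and 562 CPM in the 6 iEC libraries and was at most 16.7 CPM in the other 12. Exons of 11 members overlap a gene on the opposite strand, among them Wnt5a, Wnt7b, Wnt11, Sfrp2, Notum, Rspo3, Lef1 and Axin2. Whether the counting used strand is not given in the sources used here, so reads of the overlapping stretches may belong to either gene. In these bulk samples, fewer cells of a type and less RNA per cell cannot be told apart.

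The iECs of both organs had more Wnt5a, Fzd3, Fzd4, Fzd5, Dkk2, Lef1 and Axin2 than the fibroblasts of their organ, and less of Fzd1, Fzd2, Fzd7, Ror1, Ror2, Sfrp1, Sfrp2, Dkk3, Rspo1, Rspo3, Nkd1 and Apcdd1. Frzb was higher in lung iECs than in their fibroblasts, with no call in heart iECs. A gene is called here when edgeR's quasi-likelihood test, adjusted by the Benjamini-Hochberg method over all 14864 genes, gave an adjusted p under 0.05. In lung iECs against lung fibroblasts, 10 of the 42 members were called higher and 15 lower, where 25.9% and 24.7% of all genes tested were called in those directions. In heart iECs against heart fibroblasts the counts were 15 higher and 15 lower, beside 26% and 24.6% of all genes. Lung ECs against lung fibroblasts had 14 members higher and 19 lower, with 29.3% and 28.7% of all genes called. For heart ECs against heart fibroblasts, 10 members were higher and 17 lower, against backgrounds of 24.2% and 23.3%. Between the endothelial groups, lung iECs had 19 members higher and 10 lower than lung ECs, with backgrounds of 22.2% and 23%. Heart iECs had 17 members higher and 11 lower than heart ECs, with backgrounds of 24.5% and 24.4%.

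The list was not tested, and its members were chosen with earlier results of these data known. The members' shares lay above these backgrounds in most directions. The exceptions were the members higher in lung iECs against fibroblasts, at 23.8%, those higher in heart ECs than in heart fibroblasts, also at 23.8%, and, close to their background, those that iECs had lower than ECs in either organ. The members' median log2 fold change was −0.15 in lung iECs against lung fibroblasts, beside 0 over all genes, and 0.22 in heart iECs against heart fibroblasts, beside 0.021 over all genes. With genes that had a group at 0 counts set to their bound of 3 counts over the group, the heart median became 0.064. For lung ECs against lung fibroblasts the median was −0.37, and for heart ECs against heart fibroblasts it was −0.24, again −0.24 with such genes at their bound. Against ECs, iECs had member medians of 0.27 in lung and 0.20 in heart. Members were called in both directions in each comparison.

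**Figure D1:**
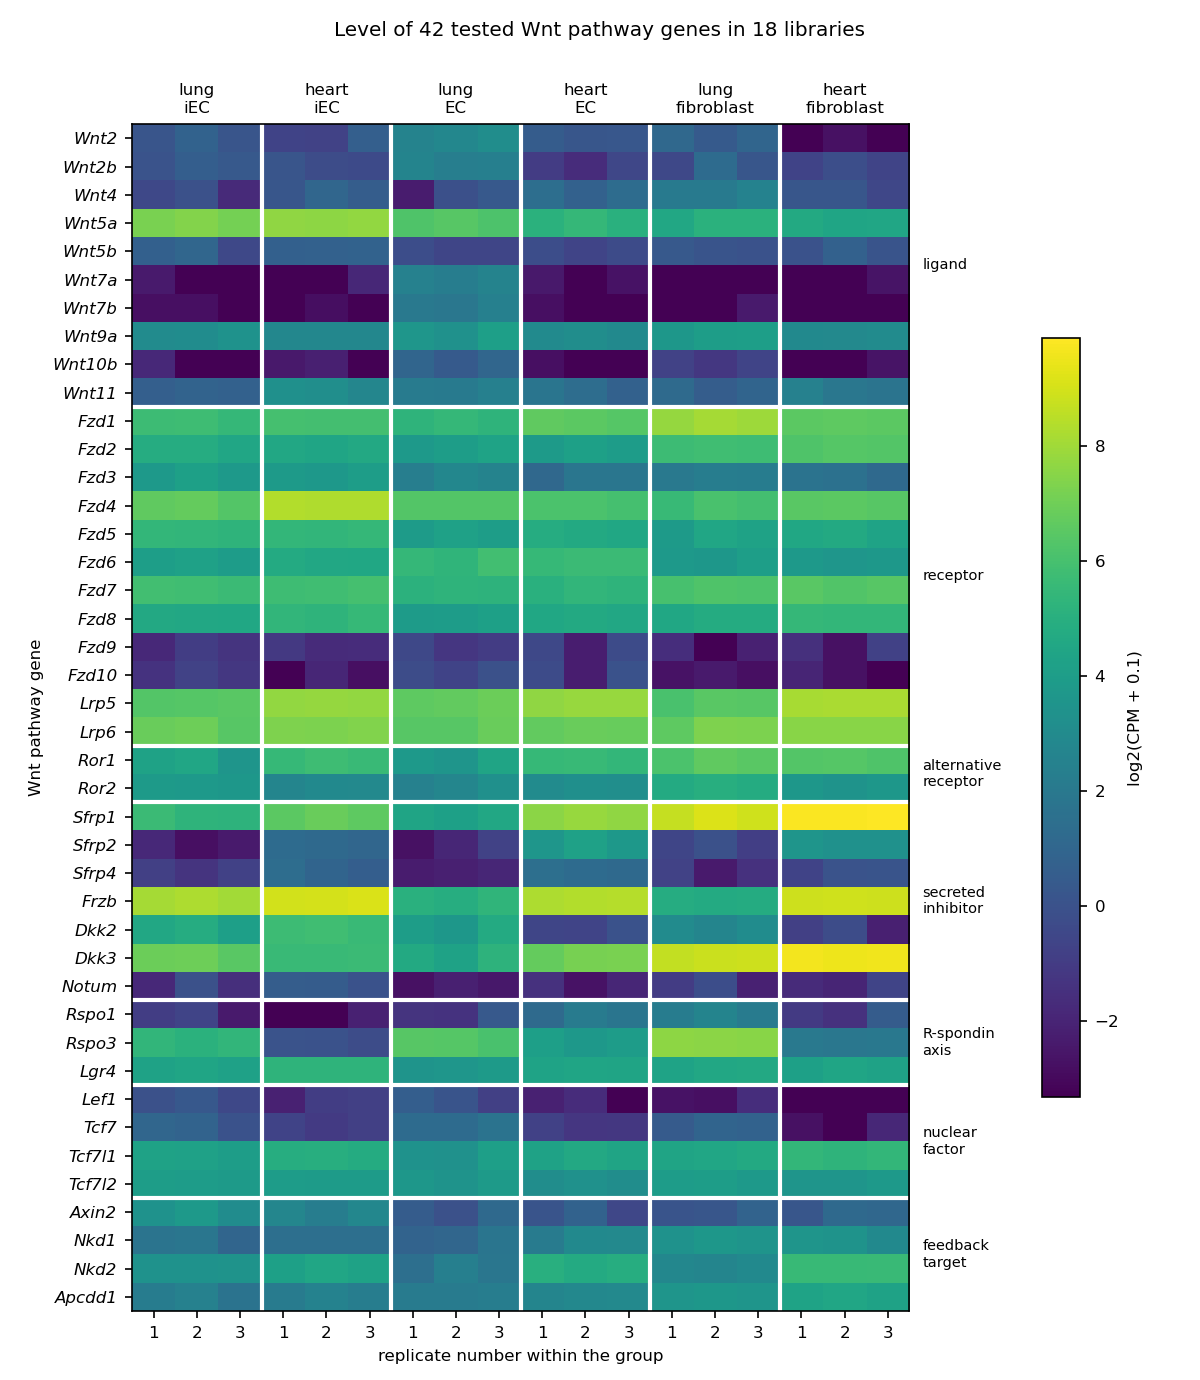
Levels of the 42 tested Wnt genes (rows, grouped by role) in the 18 libraries (columns, by group), as log2(CPM + 0.1). Colours can be compared along a row, between libraries, but not between genes; Wnt5a is brightest in the columns of both iEC groups, Fzd4 in those of heart iECs, and Sfrp1 and Dkk3 in the fibroblast columns.

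Among the ligands, Wnt5a, at chr14:28504750-28527448, plus strand in the GENCODE annotation of GRCm38, stood out in the iECs. It had 146, 172 and 137 CPM in lung iECs, 74.0, 88.0 and 72.5 CPM in lung ECs and 23.99, 33.7 and 34.7 CPM in lung fibroblasts. In the heart it had 208, 198 and 213 CPM in iECs, 34.8, 44.4 and 32.5 CPM in ECs and 26.0, 21.7 and 22.2 CPM in fibroblasts. In each organ all iEC libraries lay above all EC libraries, and all EC libraries above all fibroblast libraries. The log2 fold change of iECs against fibroblasts (± SE, here and below) was 2.30 ± 0.14 (edgeR adjusted p = 4.03e-10) in lung and 3.14 ± 0.15 (edgeR adjusted p = 8.76e-12) in heart. Against ECs it was 0.95 ± 0.14 (edgeR adjusted p = 1.74e-05) in lung iECs and 2.47 ± 0.14 (edgeR adjusted p = 1.98e-10) in heart iECs. Markers of smooth muscle and pericytes were also highest in iECs, with 6 genes summing to 2144 to 2746 CPM in lung iECs, 1044 to 1150.5 CPM in heart iECs, 668 to 1153 CPM in lung ECs, 349 to 461 CPM in heart ECs, 524 to 670.2 CPM in lung fibroblasts and 256 to 299.8 CPM in heart fibroblasts. Acta2 made up most of each sum, and no marker was at 0 in any group. The part of these markers in the Wnt5a result, or in that of the other genes higher in iECs, was not tested.

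Scaled per kilobase of merged exons, so that genes can be compared, the 13 ligands summed to 24.1 ± 2.66 CPM per kb in lung iECs and 32.1 ± 0.871 CPM per kb in heart iECs (SD, n = 3). The sums were 23.5 ± 1.76 CPM per kb in lung ECs, 9.31 ± 0.891 in heart ECs, 11.9 ± 1.40 in lung fibroblasts and 7.26 ± 0.513 in heart fibroblasts. Wnt5a made up 80.4% ± 1.22 of that sum in lung iECs, 82.1% ± 0.993 in heart iECs, 42.7% ± 6.29 in lung ECs, 50.9% ± 4.11 in heart ECs, 32.9% ± 2.89 in lung fibroblasts and 41.0% ± 1.42 in heart fibroblasts. Lung fibroblasts were the one group in which another ligand, Wnt9a, came first, at 38.5% ± 2.01 of the sum. Wnt9a itself, at group means between 6.84 and 15.3 CPM, fell in lung iECs against fibroblasts and was not called in heart iECs. These sums describe transcripts and their shares, with no test.

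**Figure D2:**
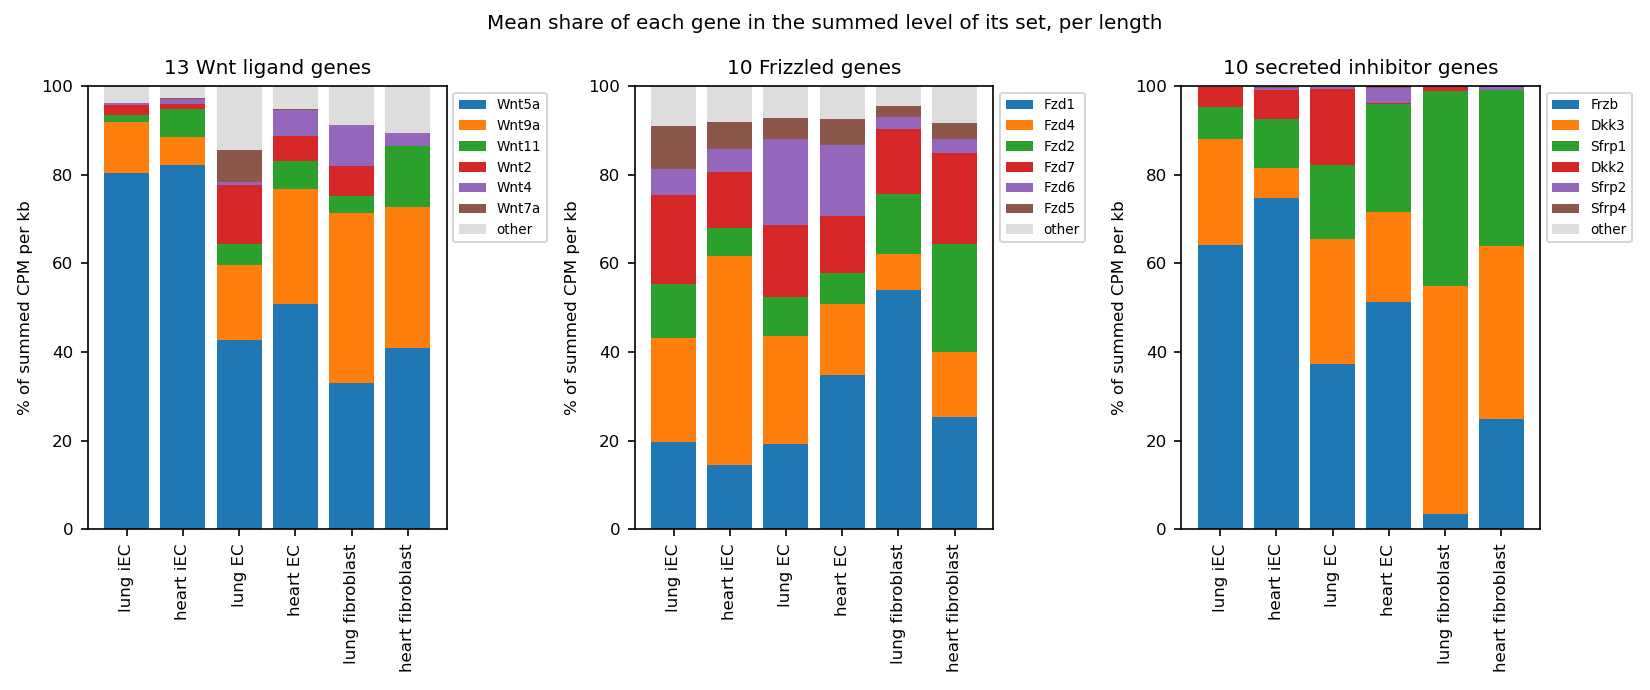
Mean share of each gene in the summed CPM per kilobase of exon of its family, for the 13 ligands, the 10 Frizzleds and the 10 secreted inhibitors, in stacked bars by group. Wnt5a fills most of the ligand bar in both iEC groups, Fzd4 the largest segment of the Frizzled bar in heart iECs, and Frzb that of the inhibitor bar in both iEC groups and both EC groups.

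Wnt2 and its close relative Wnt2b were highest in lung ECs. Wnt2 had 0.996, 1.68 and 1.01 CPM in lung iECs, 5.93, 6.81 and 8.71 CPM in lung ECs and 2.12, 1.25 and 1.85 CPM in lung fibroblasts. In heart it had 0.532, 0.500 and 1.47 CPM in iECs, 1.34, 1.04 and 1.11 CPM in ECs and 0, 0.0526 and 0 CPM in fibroblasts. Lung iECs were not called against lung fibroblasts (log2 fold change −0.49 ± 0.38, edgeR adjusted p = 0.298), and both lay below lung ECs, with −2.53 ± 0.36 (edgeR adjusted p = 1.54e-05) for lung iECs against lung ECs. In heart fibroblasts a single count was seen over the 3 libraries, against 58 counts in heart iECs, a ratio of 45.5 (95% interval 7.85 to 1828) that covers counting error only. Wnt2b was also highest in lung ECs, with 0.948, 1.42 and 1.21 CPM in lung iECs, 6.08, 4.89 and 5.13 CPM in lung ECs and 0.630, 2.35 and 1.04 CPM in lung fibroblasts. Its log2 fold change in lung iECs against lung ECs was −2.16 ± 0.37 (edgeR adjusted p = 0.000121), and no heart library exceeded 1.02 CPM.

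Wnt7a and Wnt7b, ligands that act through β-catenin in lung epithelium and brain vessels, were detected almost only in lung ECs. Wnt7a had 5.45, 4.73 and 5.88 CPM in lung ECs, and 2 counts in all lung iEC libraries together, 4 in heart iECs, 3 in heart ECs, 0 in lung fibroblasts and 1 in heart fibroblasts. Lung ECs were at least 108-fold higher than lung fibroblasts, taking the floor as 3 counts over the group, and their ratio to lung iECs was 174 (95% interval 47.8 to 1441). Wnt7b had 3.89, 3.63 and 5.29 CPM in lung ECs and at most 2 counts in each other group. Beside these 2 genes, 7 lung epithelial markers summed to 61.5 to 69.2 CPM in lung ECs, 0.901 to 1.503 CPM in lung iECs and 0.744 to 1.62 CPM in lung fibroblasts. In lung ECs, Cdh1 (mean 45.3 CPM) and Epcam (17.2 CPM) carried that sum. The other 5, Sftpc, Sftpb, Scgb1a1, Nkx2-1 and Cldn18, had means of 0.0417 to 0.620 CPM in lung ECs, 0 to 0.105 CPM in lung iECs and 0.0573 to 0.0983 CPM in lung fibroblasts, and all but Scgb1a1 were highest in lung ECs. Their part in the lung EC values of Wnt2, Wnt2b, Wnt7a, Wnt7b and Wnt10b was not tested.

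Wnt4, a ligand of kidney and gonad development, had its highest level in lung fibroblasts. It had 0.616, 0.859 and 0.193 CPM in lung iECs and 4.12, 4.26 and 5.64 CPM in lung fibroblasts, a log2 fold change of −3.04 ± 0.52 (edgeR adjusted p = 8.49e-05). In heart, the iECs had 1.06, 1.92 and 1.38 CPM and the fibroblasts 1.04, 1.05 and 0.605 CPM, a difference that was not called (0.68 ± 0.52, edgeR adjusted p = 0.29). Heart ECs, at 2.60, 1.59 and 2.44 CPM, were the next highest group and were called against heart fibroblasts (1.28 ± 0.51, edgeR adjusted p = 0.0464), a call lost without lung iEC replicate 1, heart iEC replicate 1, 2 or 3, lung EC replicate 2, heart EC replicate 1 or 3, lung fibroblast replicate 1, 2 or 3 or heart fibroblast replicate 1, 2 or 3, with an adjusted p of up to 0.147, and with replicate number as a block (adjusted p = 0.0589). Wnt11, known for cell movements and heart development, was highest in heart iECs. It had 9.85, 9.09 and 6.52 CPM in heart iECs, 3.36, 2.52 and 1.61 CPM in heart ECs and 5.43, 3.63 and 3.33 CPM in heart fibroblasts, and heart iECs were higher than both (log2 fold change 1.03 ± 0.25, edgeR adjusted p = 0.00196 against fibroblasts). Lung iECs had 1.47, 1.72 and 1.59 CPM, below lung ECs at 4.43, 4.16 and 5.29 CPM (−1.53 ± 0.27, edgeR adjusted p = 0.000143) and overlapping lung fibroblasts at 2.29, 1.39 and 1.81 CPM. Of the remaining ligands, Wnt5b had group means of 0.644 to 1.62 CPM and Wnt10b of 0.0149 to 1.69 CPM, the highest in lung ECs.

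Among the receptors, Fzd3, Fzd4 and Fzd5 were higher in the iECs of both organs than in the fibroblasts, while Fzd1, Fzd2 and Fzd7 were lower. Fzd4 (GRCm38 chr7:89404355-89413134, plus strand), which also serves as the receptor for Norrin in retinal vessels, had 101, 108 and 80.0 CPM in lung iECs, 80.6, 81.5 and 81.4 CPM in lung ECs and 47.2, 66.8 and 60.0 CPM in lung fibroblasts. Its heart levels were 329, 319 and 309 CPM in iECs, 70.8, 70.8 and 63.5 CPM in ECs and 90.2, 92.8 and 86.4 CPM in fibroblasts. The 3 heart iEC libraries were the highest of all 18. Fzd4 rose by 0.73 ± 0.11 on the log2 scale in lung iECs against lung fibroblasts (edgeR adjusted p = 2.08e-05) and by 1.83 ± 0.11 in heart iECs against heart fibroblasts (edgeR adjusted p = 1.59e-10). Against ECs the change was called in heart iECs (2.22 ± 0.11, edgeR adjusted p = 1.87e-11) and not in lung iECs (0.24 ± 0.11, edgeR adjusted p = 0.0752). As a share of the 10 Frizzleds per kilobase, Fzd4 held 23.5% ± 1.18 in lung iECs, 47.1% ± 1.58 in heart iECs, 24.3% ± 1.42 in lung ECs, 16.1% ± 0.490 in heart ECs, 7.92% ± 0.676 in lung fibroblasts and 14.9% ± 0.399 in heart fibroblasts.

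Fzd3, a planar polarity receptor, had 13.7, 18.2 and 13.5 CPM in lung iECs, 4.91, 6.68 and 5.83 CPM in lung ECs and 3.95, 4.79 and 4.47 CPM in lung fibroblasts. Heart values were 14.3, 13.1 and 16.3 CPM in iECs, 2.11, 3.57 and 3.50 CPM in ECs and 3.18, 2.90 and 2.18 CPM in fibroblasts. The iECs averaged 15.1 ± 2.64 CPM in lung and 14.6 ± 1.61 CPM in heart (SD, n = 3 each), and their ranges overlapped. Their log2 fold change against fibroblasts was 1.78 ± 0.19 (edgeR adjusted p = 3.9e-07) in lung and 2.40 ± 0.20 (edgeR adjusted p = 1.38e-08) in heart. Heart ECs did not differ from heart fibroblasts past the threshold (0.13 ± 0.22, edgeR adjusted p = 0.646), and heart iECs lay above heart ECs by 2.26 ± 0.20 (edgeR adjusted p = 3.38e-08).

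Fzd1 had its highest level in lung fibroblasts, where it made up 54.1% ± 0.682 of the Frizzled sum per kilobase. It had 52.8, 53.9 and 43.6 CPM in lung iECs, 37.6, 44.6 and 38.7 CPM in lung ECs and 221, 269 and 248 CPM in lung fibroblasts. The log2 fold changes against lung fibroblasts were −2.30 ± 0.097 (edgeR adjusted p = 1.4e-12) for lung iECs and −2.61 ± 0.098 (edgeR adjusted p = 1.58e-13) for lung ECs. In heart iECs the log2 fold change was −0.62 ± 0.094 (edgeR adjusted p = 1.9e-05), and heart ECs were not called against heart fibroblasts (−0.039 ± 0.093, edgeR adjusted p = 0.757). Fzd2 had 23.9, 21.7 and 24.7 CPM in heart iECs, 14.3, 17.9 and 15.5 CPM in heart ECs and 76.5, 82.8 and 79.5 CPM in heart fibroblasts. Both were below heart fibroblasts, with a log2 fold change of −1.76 ± 0.12 (edgeR adjusted p = 1.05e-09) for heart iECs and −2.32 ± 0.13 (edgeR adjusted p = 1.16e-10) for heart ECs. Fzd6, another polarity receptor, was highest in ECs, at 47.2 ± 10.4 CPM in lung ECs and 48.8 ± 2.46 CPM in heart ECs, against 17.0 ± 1.58 CPM in lung iECs and 24.6 ± 1.71 CPM in heart iECs (SD, n = 3 each). Fzd7 and Fzd8 had group means between 16.2 and 84.4 CPM, and Fzd9 and Fzd10 stayed under 1 CPM in every group mean.

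The co-receptors Lrp5 and Lrp6, which carry the β-catenin branch, differed between the cell types of an organ by less than 1 on the log2 scale. Lrp5 had 80.8, 83.5 and 88.8 CPM in lung iECs, 97.0, 102 and 121 CPM in lung ECs and 66.6, 91.4 and 86.0 CPM in lung fibroblasts. Among heart libraries it had 209, 216 and 211 CPM in iECs, 208, 228 and 228 CPM in ECs and 284, 289.5 and 292 CPM in fibroblasts. Every heart library lay above every lung library, whatever the cell type. The log2 fold change of iECs against fibroblasts was 0.053 ± 0.098 (edgeR adjusted p = 0.685) in lung and −0.44 ± 0.097 (edgeR adjusted p = 0.000899) in heart. Lrp6 had 117, 125 and 85.7 CPM in lung iECs and 95.4, 160.2 and 154 CPM in lung fibroblasts, and 157, 154 and 165 CPM in heart iECs and 184, 182 and 184 CPM in heart fibroblasts. Neither difference was called (−0.32 ± 0.17, edgeR adjusted p = 0.12 in lung, −0.21 ± 0.17, edgeR adjusted p = 0.316 in heart). The lower Lrp6 of lung ECs against lung fibroblasts (−0.49 ± 0.17, edgeR adjusted p = 0.0188) was no longer called without lung EC replicate 1 or 2 or lung fibroblast replicate 2 or 3, with an adjusted p of up to 0.101.

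Ror1 and Ror2, tyrosine kinase receptors that pair with Wnt5a, were lower in the iECs and ECs of both organs than in fibroblasts. Ror1 had 19.1, 21.9 and 11.7 CPM in lung iECs, 13.6, 11.5 and 20.8 CPM in lung ECs and 69.8, 99.3 and 90.9 CPM in lung fibroblasts. Its log2 fold change was −2.30 ± 0.22 (edgeR adjusted p = 4.01e-07) in lung iECs and −2.50 ± 0.22 (edgeR adjusted p = 1.25e-07) in lung ECs, each against lung fibroblasts. In heart it had 44.8, 54.0 and 49.1 CPM in iECs and 81.1, 84.5 and 75.7 CPM in fibroblasts, a log2 fold change of −0.71 ± 0.21 (edgeR adjusted p = 0.0102). Ror2 fell by 1.06 ± 0.15 in lung iECs (edgeR adjusted p = 1.2e-05) and fell by 0.77 ± 0.16 in heart iECs (edgeR adjusted p = 0.000572). Its fall in heart ECs against heart fibroblasts (−0.44 ± 0.16, edgeR adjusted p = 0.0319) was not called without heart EC replicate 1, 2 or 3 or heart fibroblast replicate 1 or 3, with an adjusted p of up to 0.117.

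**Figure D3:**
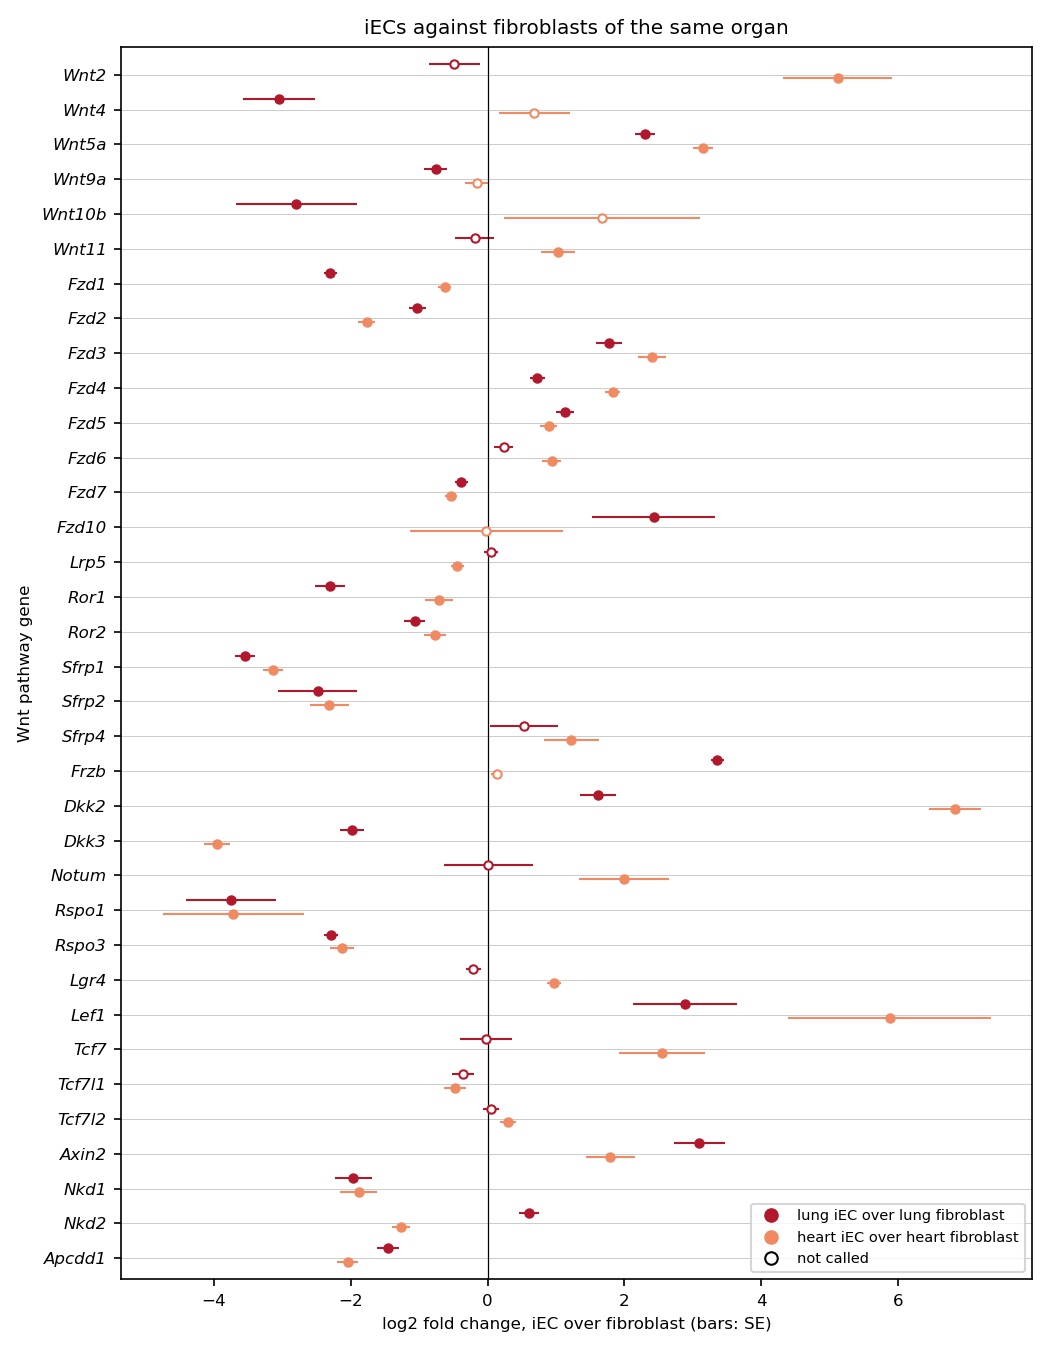
Log2 fold change ± SE of iECs against fibroblasts for 35 tested Wnt genes, lung in dark red and heart in orange; filled points were called at an adjusted p under 0.05 and open points were not. Wnt5a, Fzd3 and Axin2 lie right of 0 in both organs and Sfrp1 and Dkk3 left of it, and Frzb is far right in lung only; values of genes with a group at 0 to 3 counts (Lef1, Wnt2, Rspo1) depend on the prior count of the fit.

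Among the secreted inhibitors, Sfrp1 and Dkk3 were far lower in iECs and ECs than in fibroblasts, while Frzb rose in lung iECs and Dkk2 in the iECs of both organs. Sfrp1 (GRCm38 chr8:23411502-23449632, plus strand), a secreted Frizzled-related protein that binds Wnts, had 50.3, 38.7 and 36.8 CPM in lung iECs, 20.5, 17.9 and 23.5 CPM in lung ECs and 419, 571 and 476 CPM in lung fibroblasts. Its heart levels were 94.4, 117 and 96.9 CPM in iECs, 191, 228 and 206 CPM in ECs and 887, 888 and 933 CPM in fibroblasts. Fibroblasts were far above both other cell types in each organ. Relative to fibroblasts, the log2 fold change of iECs was −3.54 ± 0.14 in lung (edgeR adjusted p = 1.22e-12) and −3.13 ± 0.14 in heart (edgeR adjusted p = 3.21e-12). For ECs it was −4.57 ± 0.15 in lung (edgeR adjusted p = 4.92e-14) and −2.12 ± 0.14 in heart (edgeR adjusted p = 9.89e-10).

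Dkk3, a divergent member of the Dickkopf family, was also highest in fibroblasts. It had 121, 123 and 88.9 CPM in lung iECs, 26.1, 19.5 and 36.4 CPM in lung ECs and 403, 448 and 461 CPM in lung fibroblasts. The heart values were 49.2, 48.2 and 50.7 CPM in iECs, 108, 141 and 146 CPM in ECs and 787, 753 and 761 CPM in fibroblasts. Lung iECs stood above lung ECs (log2 fold change 2.02 ± 0.18, edgeR adjusted p = 1.25e-07), while heart iECs stood below heart ECs (−1.42 ± 0.17, edgeR adjusted p = 4.66e-06). Against fibroblasts the log2 fold change of iECs was −1.98 ± 0.18 in lung (edgeR adjusted p = 8.72e-08) and −3.96 ± 0.19 in heart (edgeR adjusted p = 4.32e-11). That of ECs was −4.00 ± 0.19 in lung (edgeR adjusted p = 2.95e-11) and −2.54 ± 0.18 in heart (edgeR adjusted p = 9.87e-09).

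Frzb, also called Sfrp3 (GRCm38 chr2:80411970-80447625, minus strand), departed from these. It had 273, 307 and 266 CPM in lung iECs, 32.5, 30.0 and 38.9 CPM in lung ECs and 28.3, 26.7 and 27.8 CPM in lung fibroblasts. Among heart libraries it had 497, 516 and 546 CPM in iECs, 307, 320.3 and 335 CPM in ECs and 463, 489 and 470.4 CPM in fibroblasts. Heart fibroblasts thus already held it at a high level, and lung fibroblasts did not. Frzb rose by 3.35 ± 0.093 in lung iECs against lung fibroblasts (edgeR adjusted p = 5e-15) and was not called in heart iECs (0.13 ± 0.084, edgeR adjusted p = 0.198, or 0.13, edgeR adjusted p = 0.0178 when the heart iECs and heart fibroblasts were fitted alone). The difference between these changes, lung minus heart, was 3.22 ± 0.12 (edgeR adjusted p = 4.52e-12). Lung iECs also lay above lung ECs, by 3.06 ± 0.091 (edgeR adjusted p = 1.84e-14). Frzb made up 64.0% ± 3.26 of the inhibitor sum per kilobase in lung iECs and 74.7% ± 1.54 in heart iECs, against 3.39% ± 0.424 in lung fibroblasts and 25.0% ± 0.813 in heart fibroblasts. That sum itself was 136 ± 13.2 CPM per kb in lung iECs, 215 ± 7.79 in heart iECs, 28.5 ± 6.69 in lung ECs, 194 ± 14.1 in heart ECs, 253 ± 23.9 in lung fibroblasts and 587 ± 3.54 in heart fibroblasts (mean ± SD, n = 3 each). Frzb was the largest part of that sum in ECs too, at 10.4 CPM per kb in lung ECs and 99.1 in heart ECs.

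Dkk2 (GRCm38 chr3:132085292-132180304, plus strand), which binds Lrp5 and Lrp6, was the member with the largest rise in heart iECs among those with at least 5 CPM. It had 52.0, 55.7 and 49.8 CPM in heart iECs, 0.583, 0.549 and 0.888 CPM in heart ECs and 0.470, 0.737 and 0.121 CPM in heart fibroblasts. Lung values were 23.9, 28.1 and 17.6 CPM in iECs, 16.2, 12.3 and 26.8 CPM in ECs and 8.02, 6.27 and 8.53 CPM in fibroblasts. Every lung group held Dkk2, and in heart it was at or under 1 CPM outside the iECs. Against fibroblasts, the log2 fold change was 6.83 ± 0.38 (edgeR adjusted p = 4.49e-10) in heart iECs and 1.61 ± 0.26 (edgeR adjusted p = 9.19e-05) in lung iECs, and the difference between them, lung minus heart, was −5.22 ± 0.49 (edgeR adjusted p = 1.41e-06). Heart iECs also exceeded heart ECs by 6.29 ± 0.36 (edgeR adjusted p = 8.09e-10), while lung iECs overlapped lung ECs (0.33 ± 0.25, edgeR adjusted p = 0.296).

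Sfrp2, another Wnt-binding protein, was nearly a heart-only transcript. It had 2.31, 2.17 and 1.94 CPM in heart iECs, 12.2, 18.5 and 13.2 CPM in heart ECs and 11.6, 10.2 and 10.1 CPM in heart fibroblasts, and at most 0.862 CPM in any lung library. Its lower call in lung iECs rests on 7 counts, against 38 in lung fibroblasts. The log2 fold change of heart iECs was −2.31 ± 0.28 (edgeR adjusted p = 1.77e-06) against heart fibroblasts and −2.77 ± 0.28 (edgeR adjusted p = 2.36e-07) against heart ECs. Notum, an enzyme that strips the lipid from Wnts and is itself a β-catenin target, was low throughout. It had 1.38, 1.33 and 0.906 CPM in heart iECs, 0.269, 0.0549 and 0.167 CPM in heart ECs and 0.209, 0.158 and 0.544 CPM in heart fibroblasts. Lung libraries had 0.190, 0.859 and 0.241 CPM in iECs, 0.0486, 0.122 and 0.0833 CPM in ECs and 0.401, 0.766 and 0.135 CPM in fibroblasts. Heart iECs were higher than heart fibroblasts (1.997 ± 0.66, edgeR adjusted p = 0.0169) and higher than heart ECs (2.80 ± 0.70, edgeR adjusted p = 0.00288). The call against fibroblasts was lost without heart fibroblast replicate 1 or 2, with an adjusted p of up to 0.0795. Sfrp4, a further Frizzled-related protein, had group means between 0.129 and 2.42 CPM and was higher in heart iECs and heart ECs than in heart fibroblasts, the iEC call being lost without heart iEC replicate 1 or heart fibroblast replicate 1 (adjusted p of up to 0.0829).

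R-spondins amplify Wnt signals by sparing Frizzleds from breakdown, with Lgr4 and Lgr5 as their receptors. Rspo3 (GRCm38 chr10:29452416-29535867, minus strand), known in endothelium for vessel stability, was lower in the iECs of both organs than in either other cell type. It had 41.5, 34.4 and 41.0 CPM in lung iECs, 86.4, 85.0 and 67.7 CPM in lung ECs and 195, 191 and 186 CPM in lung fibroblasts. In heart it had 0.932, 0.917 and 0.734 CPM in iECs, 17.1, 13.1 and 15.5 CPM in ECs and 3.86, 3.68 and 3.75 CPM in fibroblasts. Heart ECs were the highest of the heart groups, and lung fibroblasts the highest of all. The log2 fold change of iECs against fibroblasts was −2.29 ± 0.10 (edgeR adjusted p = 3.81e-12) in lung and −2.12 ± 0.18 (edgeR adjusted p = 1.2e-08) in heart. Against ECs it was −1.03 ± 0.10 (edgeR adjusted p = 1.8e-07) in lung iECs and −4.14 ± 0.15 (edgeR adjusted p = 3.52e-13) in heart iECs. ECs went opposite ways by organ, with −1.26 ± 0.10 (edgeR adjusted p = 5.26e-09) for lung ECs and 2.02 ± 0.13 (edgeR adjusted p = 7.05e-10) for heart ECs, each against its fibroblasts. Rspo1 fell in the iECs too, to 24 counts in lung iECs against 301 in lung fibroblasts and to 3 counts in heart iECs against 34 in heart fibroblasts, a ratio of fibroblasts to iECs of 14.4 (95% interval 4.54 to 73.5) by counting error. Lgr4 had 19.8 ± 1.72 CPM in lung iECs, 38.5 ± 0.128 CPM in heart iECs, 22.8 ± 2.63 CPM in lung fibroblasts and 19.7 ± 1.67 CPM in heart fibroblasts (SD, n = 3 each), and was called higher in heart iECs only (0.97 ± 0.10, edgeR adjusted p = 2.67e-07), with a difference from the lung change of −1.17 ± 0.14 (edgeR adjusted p = 9.11e-06). Heart ECs, the heart group with the most Rspo3 and Rspo1, also had the most mesothelial and epicardial markers, 6 genes summing to 4.04 to 5.52 CPM in heart iECs, 355 to 521 CPM in heart ECs and 50.7 to 69.3 CPM in heart fibroblasts, with none of the 6 at 0 in any group. In lung the same markers summed to 17.78 to 25.3 CPM in iECs, 202 to 322 CPM in ECs and 266 to 278 CPM in fibroblasts, lowest in the iECs as Rspo3 was. Their part in these results was not tested.

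**Figure D4:**
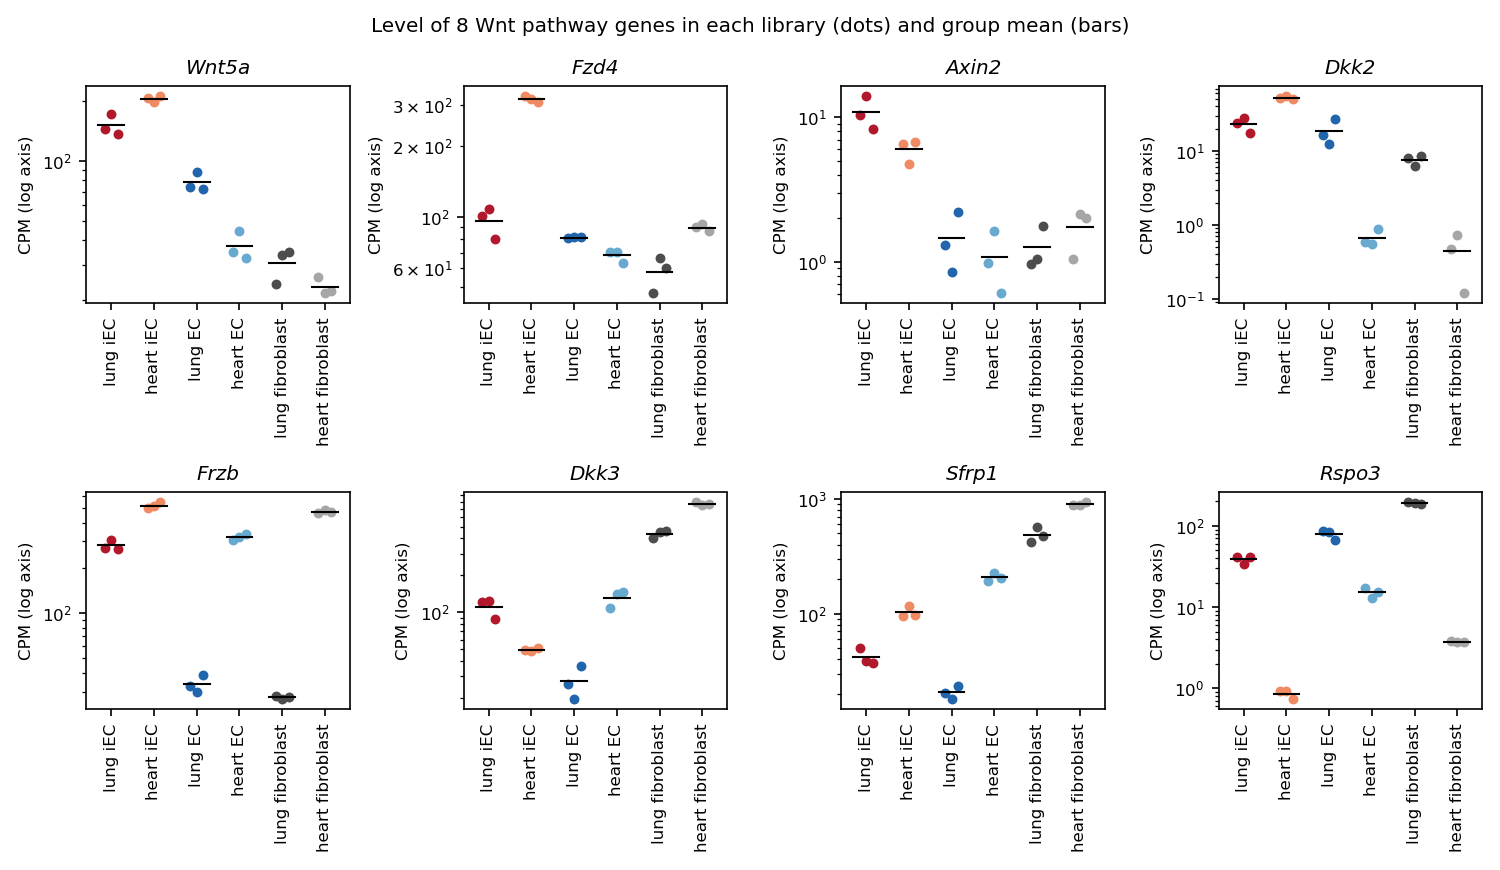
CPM (log axis) of Wnt5a, Fzd4, Axin2, Dkk2, Frzb, Dkk3, Sfrp1 and Rspo3 in each library (dots) with the group mean (bars), by group. Axin2 lies between 4.75 and 14.05 CPM in the 6 iEC libraries and at or under 2.21 CPM in the other 12, and Rspo3 is lowest in heart iECs.

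The feedback targets of β-catenin were called in both directions. Axin2 (GRCm38 chr11:108920349-108950783, plus strand), a scaffold of the complex that destroys β-catenin and its best known target gene, had 10.4, 14.05 and 8.30 CPM in lung iECs, 1.31, 0.856 and 2.21 CPM in lung ECs and 0.973, 1.05 and 1.76 CPM in lung fibroblasts. Its heart levels were 6.48, 4.75 and 6.78 CPM in iECs, 0.986, 1.65 and 0.611 CPM in ECs and 1.04, 2.16 and 1.996 CPM in fibroblasts. All 6 iEC libraries lay above all 12 others. Against fibroblasts, the log2 fold change was 3.09 ± 0.37 (edgeR adjusted p = 1.4e-06) in lung iECs and 1.79 ± 0.36 (edgeR adjusted p = 0.000405) in heart iECs. Against ECs it was 2.90 ± 0.36 (edgeR adjusted p = 3.11e-06) in lung iECs and 2.47 ± 0.38 (edgeR adjusted p = 2.91e-05) in heart iECs. ECs were not called against fibroblasts in lung (0.20 ± 0.40, edgeR adjusted p = 0.696) or heart (−0.68 ± 0.41, edgeR adjusted p = 0.187).

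Nkd1 and Nkd2, inhibitors that bind Dishevelled, and Apcdd1, a membrane inhibitor of Wnt signalling, are targets as well. Nkd1 had 3.32, 3.57 and 1.88 CPM in lung iECs and 10.5, 12.4 and 11.4 CPM in lung fibroblasts. Among heart libraries it had 2.71, 2.75 and 2.76 CPM in iECs, 4.39, 7.57 and 7.33 CPM in ECs and 11.8, 10.9 and 7.56 CPM in fibroblasts. Nkd1 thus fell where Axin2 rose, with a log2 fold change of −1.96 ± 0.27 in lung iECs (edgeR adjusted p = 6.78e-06) and −1.88 ± 0.27 in heart iECs (edgeR adjusted p = 1.08e-05). Lung ECs fell by 2.25 ± 0.27 (edgeR adjusted p = 1.14e-06). The fall of heart ECs (−0.66 ± 0.25, edgeR adjusted p = 0.0408) was not called without heart iEC replicate 1, 2 or 3, heart EC replicate 1, lung fibroblast replicate 3 or heart fibroblast replicate 1 or 2, with an adjusted p of up to 0.2. Apcdd1 had 4.50, 5.41 and 3.14 CPM in lung iECs against 11.8, 12.4 and 11.7 CPM in lung fibroblasts, and 4.30, 5.67 and 4.70 CPM in heart iECs against 19.7, 21.9 and 19.1 CPM in heart fibroblasts. It fell by 1.45 ± 0.16 in lung (edgeR adjusted p = 4.36e-07) and fell by 2.04 ± 0.16 in heart (edgeR adjusted p = 3.71e-09). Nkd2 was the single member called in opposite directions in the iECs of the organs. It had 10.5, 10.5 and 10.7 CPM in lung iECs against 6.87, 6.42 and 7.54 CPM in lung fibroblasts (0.61 ± 0.15, edgeR adjusted p = 0.00236), and 17.7, 22.3 and 19.4 CPM in heart iECs against 47.3, 47.0 and 48.3 CPM in heart fibroblasts (−1.26 ± 0.14, edgeR adjusted p = 3.1e-07).

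Lef1 and Tcf7 are nuclear partners through which β-catenin activates genes, and Tcf7l1 acts mostly as a repressor. Lef1 was scarce, with 58 counts in lung iECs, 24 in heart iECs, 65 in lung ECs, 7 in heart ECs, 7 in lung fibroblasts and 0 in heart fibroblasts. In CPM it was 0.853, 1.16 and 0.627 in lung iECs against 0.0573, 0.0479 and 0.226 in lung fibroblasts, a log2 fold change of 2.89 ± 0.76 (edgeR adjusted p = 0.00475). Heart iECs, at 0.133, 0.417 and 0.475 CPM, were at least 6.28-fold higher than heart fibroblasts, with the floor at 3 counts over the group. The call for heart ECs against heart fibroblasts was lost without lung iEC replicate 1, 2 or 3, heart iEC replicate 2 or 3, lung EC replicate 2, heart EC replicate 1 or 2, lung fibroblast replicate 1 or heart fibroblast replicate 1, 2 or 3, with an adjusted p of up to 0.133, and with replicate number as a block (adjusted p = 0.0656). Tcf7 had 1.94, 1.76 and 0.916 CPM in lung iECs, 2.38, 2.36 and 3.17 CPM in lung ECs and 1.26, 1.77 and 1.67 CPM in lung fibroblasts, with no call for lung iECs against lung fibroblasts (−0.027 ± 0.38, edgeR adjusted p = 0.963). In heart it had 0.532, 0.375 and 0.475 CPM in iECs, 0.493, 0.329 and 0.333 CPM in ECs and 0.0522, 0 and 0.181 CPM in fibroblasts, and iECs were higher than fibroblasts (2.55 ± 0.63, edgeR adjusted p = 0.00252). Per kilobase, Tcf7l1 was the most abundant of the 4 nuclear factors in every group, from 55.2% ± 4.72 of their sum in lung ECs to 87.8% ± 1.05 in heart fibroblasts. Tcf7l2 had group means of 9.16 to 15.5 CPM.

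To set these genes beside their promoters, 4 windows of 300 bases are shown, from 250 bases before to 50 after the start of transcription, as annotated by RefSeq on GRCm38.p6. Axin2, Dkk2 and Lef1 were higher in the iECs of both organs, and Frzb rose in lung iECs. Capitals mark 2 short motifs, the core TCAAAG bound by TCF and LEF factors (or CTTTGA on the other strand) and the core ATTGT bound by SOX factors (or ACAAT), which do not overlap each other here.
Axin2, chr11:108920099-108920398, plus strand: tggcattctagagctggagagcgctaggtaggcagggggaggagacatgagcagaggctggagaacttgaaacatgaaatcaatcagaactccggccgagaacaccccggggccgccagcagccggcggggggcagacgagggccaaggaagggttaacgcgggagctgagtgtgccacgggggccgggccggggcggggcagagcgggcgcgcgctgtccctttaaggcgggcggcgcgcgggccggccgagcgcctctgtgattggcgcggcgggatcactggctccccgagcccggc
Dkk2, chr3:132085042-132085341, plus strand: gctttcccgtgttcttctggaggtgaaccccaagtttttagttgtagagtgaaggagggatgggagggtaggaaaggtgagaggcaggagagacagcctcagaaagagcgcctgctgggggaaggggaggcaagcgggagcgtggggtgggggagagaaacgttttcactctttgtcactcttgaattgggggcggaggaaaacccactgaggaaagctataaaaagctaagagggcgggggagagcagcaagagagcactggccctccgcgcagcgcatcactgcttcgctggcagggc
Lef1, chr3:131156044-131156343, plus strand: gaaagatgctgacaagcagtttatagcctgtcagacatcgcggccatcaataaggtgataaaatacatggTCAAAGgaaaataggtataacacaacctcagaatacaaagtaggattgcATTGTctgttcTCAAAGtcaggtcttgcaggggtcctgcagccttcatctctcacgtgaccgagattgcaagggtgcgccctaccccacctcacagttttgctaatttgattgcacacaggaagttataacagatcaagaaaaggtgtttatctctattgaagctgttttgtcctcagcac
Frzb, chr2:80447347-80447646, minus strand: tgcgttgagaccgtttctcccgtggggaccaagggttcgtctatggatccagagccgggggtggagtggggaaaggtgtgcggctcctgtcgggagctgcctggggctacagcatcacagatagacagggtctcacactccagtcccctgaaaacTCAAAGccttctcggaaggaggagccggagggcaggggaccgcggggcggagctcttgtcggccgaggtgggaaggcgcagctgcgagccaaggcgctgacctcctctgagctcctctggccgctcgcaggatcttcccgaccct
The Lef1 window held TCAAAG at positions −180 and −120 from the start and ATTGT at −131. It is 1 of 4 annotated Lef1 starts, of which the others held none of these motifs. It is an internal start, since the gene spans chr3:131110471-131224356 in GENCODE. The windows at the gene's 5' end, from 131110047 and 131110073, are among those without a match. The Frzb window held TCAAAG at position −95. Most of this window, from 80447347 to 80447646, lies inside the GENCODE gene, which reaches 80447625, and so does the match. The Axin2 and Dkk2 windows held no match. RefSeq windows were found for 33 of the 50 members. Of the 7 members called higher in the iECs of both organs, 5 had a window (Axin2, Dkk2, Fzd4, Fzd5 and Lef1). Among them 1, Lef1, held the TCF and LEF core, in 1 of its 4 windows. Of the 12 called lower in both, 7 had a window and 2, Fzd1 and Ror1, held it. The SOX core was held by 1 of the 5, Lef1 again, and by 0 of the 7. Over all 32851 windows of this length, 16% held the TCF and LEF core and 31% the SOX core on either strand. These shares are per window, while a member was counted when any of its windows held the core. A match of these letters is a description and not a binding site, and a window without one says only that the letters are not in it.

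Across organs, 7 members were called higher in iECs than in fibroblasts in both lung and heart, namely Wnt5a, Fzd3, Fzd4, Fzd5, Dkk2, Lef1 and Axin2. They were 70% of the members higher in lung iECs and 46.7% of those higher in heart iECs, where the shares over all genes were 60.8% and 60.5%. The 12 members lower in both were 80% of those lower in each organ, beside 60.9% in lung and 61% in heart over all genes, and comprised Fzd1, Fzd2, Fzd7, Ror1, Ror2, Sfrp1, Sfrp2, Dkk3, Rspo1, Rspo3, Nkd1 and Apcdd1. Of these, Rspo1 lost its heart call without heart fibroblast replicate 3 (adjusted p = 0.0561). The lung and heart comparisons share no library. Between iECs and ECs, 13 members were higher in the iECs of both organs, among them Wnt5a, Fzd3, Fzd5, Frzb and Axin2, and 2, Fzd6 and Rspo3, were lower in both. The 13 were 68.4% of the members higher in lung iECs and 76.5% of those higher in heart iECs, beside 59.6% and 54% over all genes. The 2 were 20% of those lower in lung and 18.2% of those lower in heart, beside 54% and 50.8%. The lung call was lost for 4 of the 13 on leaving out 1 library, namely for Wnt5b without lung iEC replicate 1 or 2 or lung EC replicate 2 or 3, for Notum without lung iEC replicate 2 or lung EC replicate 1, 2 or 3, for Tcf7l1 without lung iEC replicate 1 or 2 or lung EC replicate 1 or 2 and for Tcf7l2 without lung iEC replicate 1 or 2, heart iEC replicate 1, 2 or 3, lung EC replicate 1 or 2, heart EC replicate 1 or 3, lung fibroblast replicate 2 or heart fibroblast replicate 1 or 2, with adjusted p-values of up to 0.161, 0.285, 0.11 and 0.228 in that order. The heart call of Tcf7l1 was lost without heart iEC replicate 1 or 2 or heart EC replicate 1 or 3 (adjusted p of up to 0.117). Wnt11 was higher in heart iECs and lower in lung iECs than in the ECs of the organ, and Fzd1, Sfrp1, Dkk3 and Nkd2 had the opposite pattern, the lung call of Fzd1 being lost without lung iEC replicate 1 or 2 or lung EC replicate 1 (adjusted p of up to 0.0622).

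The change in iECs against fibroblasts differed between the organs for 16 of the 42 members. 5 were called with a more positive change in lung, beside 12.6% of all genes, and 11 with a more positive change in heart, beside 12.6% of all genes. The members' median of this difference was −0.27, or −0.21 with genes at 0 counts set to their bound, against −0.022 over all genes. Frzb and Dkk2, given above, and Wnt4 at −3.73 ± 0.73 (edgeR adjusted p = 0.000943) were the largest among members with at least 1 CPM in each organ's higher group. Wnt2 had a fitted difference of −5.60 ± 0.91, which rests on the single count of heart fibroblasts. Fzd1 (−1.67 ± 0.13, edgeR adjusted p = 5.61e-08), Ror1 (−1.60 ± 0.30, edgeR adjusted p = 0.001) and Fzd4 (−1.10 ± 0.15, edgeR adjusted p = 3.31e-05) had the lower change in lung, and Dkk3 (1.98 ± 0.24, edgeR adjusted p = 1.6e-05) the higher. Frzb and Dkk2 differed in the fibroblasts themselves as well, in opposite directions, Frzb being high in heart and Dkk2 in lung.

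Lung and heart were then compared within each cell type. The fibroblast and macrophage markers given above differed between the organs too, and their part in these comparisons was not tested. In fibroblasts 13 members were higher in lung and 15 lower, beside 24.6% and 23.9% of all genes. In iECs 7 were higher and 17 lower in lung, beside 18.9% and 18.9%. In ECs 14 were higher and 17 lower in lung, beside 24.2% and 23.7%. The members' medians, lung against heart, were −0.21 in iECs, −0.095 in ECs and −0.0074 in fibroblasts, the last being −0.13 with genes at 0 counts set to their bound. The count of members higher in lung iECs was not steady: it was 4 without heart iEC replicate 1, lung iEC replicate 1 or lung iEC replicate 2, and 4 under a filter of 5 CPM in 3 libraries. Rspo3 and Tcf7 were called higher in lung in all 3 cell types, and Fzd8, Lrp5, Sfrp1, Sfrp2, Sfrp4, Frzb, Tcf7l1 and Nkd2 lower in all 3, although Sfrp4 lost its fibroblast call without lung fibroblast replicate 2 or heart fibroblast replicate 2 or 3 (adjusted p of up to 0.0728).

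Rspo3 had the largest of the lasting lung excesses, with a log2 difference of 5.49 ± 0.15 (edgeR adjusted p = 1.03e-14) in iECs, 2.38 ± 0.11 (edgeR adjusted p = 3.55e-12) in ECs and 5.66 ± 0.13 (edgeR adjusted p = 5.39e-16) in fibroblasts. The values of each library, given above, do not overlap between organs within any cell type. Sfrp2 stood at the other end, with −4.24 ± 0.48 (edgeR adjusted p = 1.15e-06) in iECs, −5.87 ± 0.37 (edgeR adjusted p = 3.53e-10) in ECs and −4.07 ± 0.33 (edgeR adjusted p = 1.28e-08) in fibroblasts. Frzb was lower in lung as well, with −0.88 ± 0.084 (edgeR adjusted p = 1.47e-07) in iECs, −3.25 ± 0.092 (edgeR adjusted p = 6.95e-15) in ECs and −4.10 ± 0.096 (edgeR adjusted p = 5.39e-16) in fibroblasts. The test of iECs against ECs for this organ difference gave 2.36 ± 0.12 (edgeR adjusted p = 1.77e-10). Nkd2 had a log2 difference of −0.90 ± 0.14 (edgeR adjusted p = 4.82e-05) in iECs, −2.96 ± 0.15 (edgeR adjusted p = 2.09e-11) in ECs and −2.77 ± 0.15 (edgeR adjusted p = 4.2e-11) in fibroblasts. Axin2 was higher in lung iECs than in heart iECs (0.87 ± 0.32, edgeR adjusted p = 0.0404), a call lost without lung iEC replicate 1 or 2 or heart iEC replicate 1, 2 or 3 (adjusted p of up to 0.178) and with replicate number as a block (adjusted p = 0.0553).

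**Figure D5:**
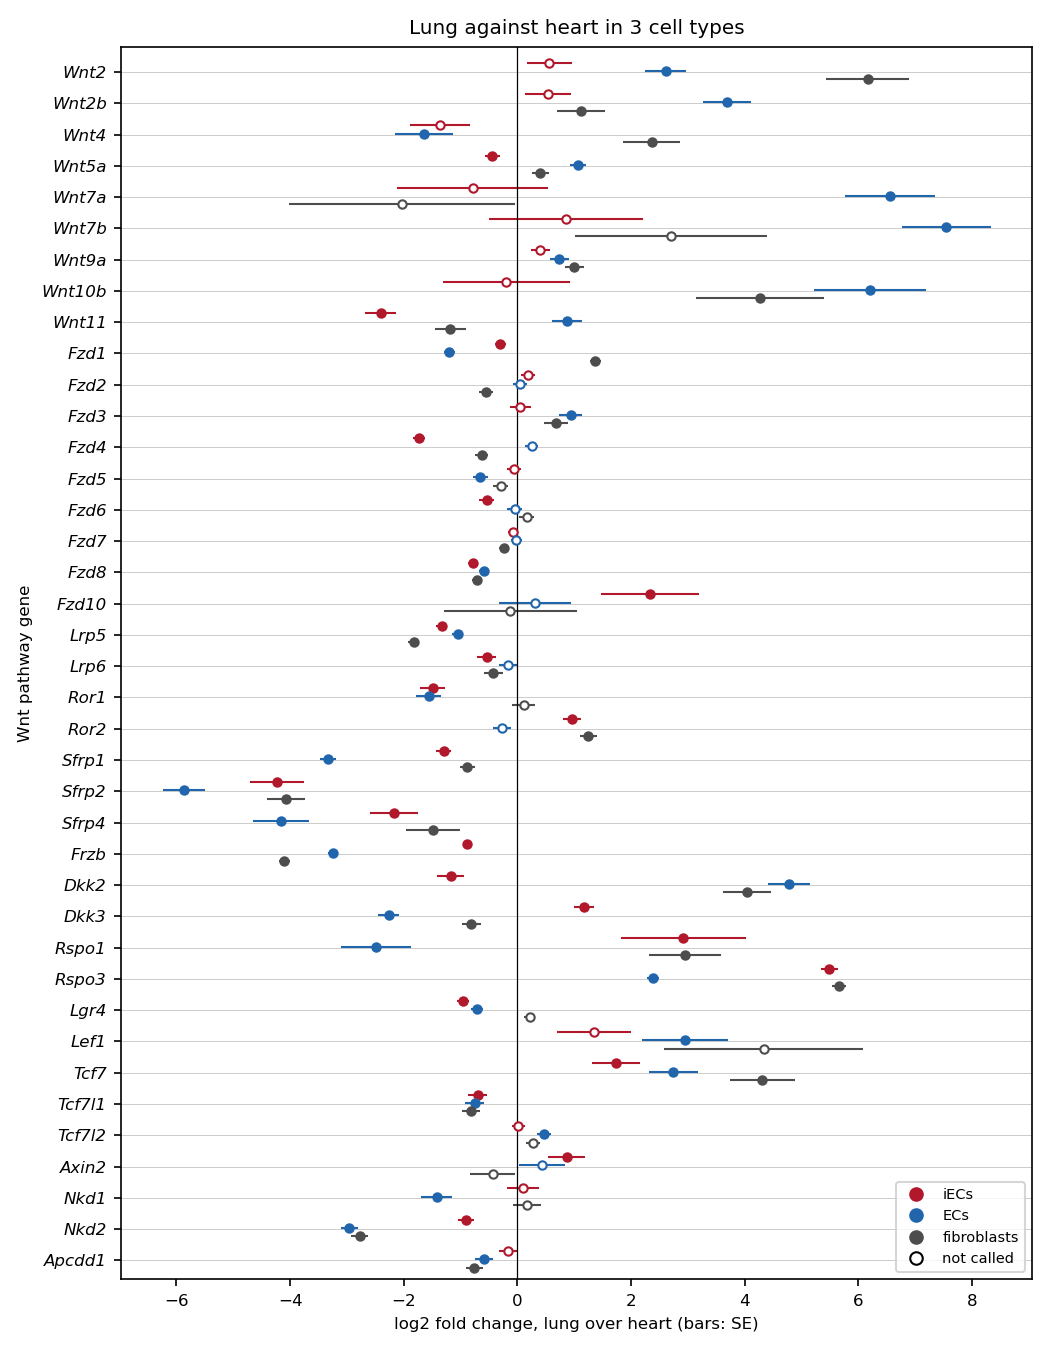
Log2 fold change ± SE of lung against heart for 39 tested Wnt genes in iECs, ECs and fibroblasts; filled points were called at an adjusted p under 0.05 and open points were not. Rspo3 lies right of 0 and Sfrp2 left of 0 in all 3 cell types, while Dkk2 is right of 0 in ECs and fibroblasts and left of it in iECs; values of genes with a group at 0 to 3 counts (Wnt2, Wnt7a, Wnt7b, Wnt10b, Lef1, Rspo1) depend on the prior count of the fit.

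The organ difference of iECs was unlike that of ECs for 20 of the 42 members, 11 with a more positive difference in iECs and 9 with a more positive one in ECs, beside 13.8% and 12.2% of all genes. Dkk2 was lower in lung than heart iECs (−1.18 ± 0.24) and higher in lung than heart ECs (4.78 ± 0.36), a difference of −5.95 ± 0.44 (edgeR adjusted p = 8.62e-08). Wnt11 did likewise, with −2.41 ± 0.27 in iECs and 0.88 ± 0.26 in ECs, a difference of −3.28 ± 0.37 (edgeR adjusted p = 3.03e-06), although its EC call was lost without heart EC replicate 3 (adjusted p = 0.0599). Dkk3 went the other way, with 1.17 ± 0.17 in iECs and −2.27 ± 0.18 in ECs, a difference of 3.44 ± 0.25 (edgeR adjusted p = 4.69e-08). Sfrp1 was lower in lung in both, with a log2 difference of −1.29 ± 0.13 in iECs and −3.33 ± 0.15 in ECs, and the difference was 2.04 ± 0.19 (edgeR adjusted p = 3.35e-07). Fibroblast markers differed as well, at 5603 to 6824 CPM in lung ECs and 19849 to 20822 CPM in heart ECs. In iECs they summed to 11017 to 14816 CPM in lung and 17475 to 18999 CPM in heart. Their part in the Sfrp1 and Dkk3 values was not tested. For Wnt2b, higher in lung ECs than heart ECs by 3.69 ± 0.43 (edgeR adjusted p = 1.05e-06) and not called in iECs (0.54 ± 0.40, edgeR adjusted p = 0.321), the difference was −3.15 ± 0.59 (edgeR adjusted p = 0.000611). Wnt2 gave −2.04 ± 0.54 (edgeR adjusted p = 0.00877), which was −1.36 with an adjusted p of 0.0607 without heart iEC replicate 3, the library with the most Wnt2 of its group. Wnt7a gave a called difference too, and its adjusted p was 0.94 without that library, which held all 4 Wnt7a counts of heart iECs.

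A further list of 87 Wnt pathway genes, of which 86 had a row and 69 were tested, covered ligand secretion, other receptors, surface inhibitors, cytoplasmic signalling, the nuclear complex, polarity and other targets. Against fibroblasts, 22 of the 69 were higher and 22 lower in lung iECs, beside 25.9% and 24.7% of all genes, and 25 higher and 22 lower in heart iECs, beside 26% and 24.6%. Against ECs, 22 were higher and 12 lower in lung iECs, beside 22.2% and 23%, and 27 higher and 15 lower in heart iECs, beside 24.5% and 24.4%. Lung ECs had 18 higher and 27 lower than lung fibroblasts, beside 29.3% and 28.7%, and heart ECs 15 higher and 27 lower than heart fibroblasts, beside 24.2% and 23.3%. The median log2 fold changes of the 69 were 0.092 in lung iECs and 0.12 in heart iECs against fibroblasts, beside 0 and 0.021 over all genes.

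Sp5, a transcription factor and direct β-catenin target, had 7.59, 6.31 and 12.9 CPM in lung iECs and 6.08, 6.13 and 7.29 CPM in heart iECs. Counted over each group it had 574 counts in lung iECs against 0 in lung fibroblasts, at least 178-fold higher, and 453 counts in heart iECs against 1 in heart fibroblasts, a ratio of 355 (95% interval 63.5 to 14071). Heart iECs were also higher in Sp5 than heart ECs, at 1.34, 1.26 and 1.17 CPM (log2 fold change 2.36 ± 0.30, edgeR adjusted p = 5.85e-06). Lung ECs had 2.38, 2.98 and 3.71 CPM. In both organs every EC library thus lay above every fibroblast library as well, the latter at no more than 0.0605 CPM. Of the 8 further targets tested, lung iECs had 5 higher and 1 lower than their fibroblasts, and heart iECs 4 higher and 0 lower, beside shares over all genes of 25.9% and 24.7% in lung and 26% and 24.6% in heart. ECs did much the same against fibroblasts. Lung ECs had 5 higher and 0 lower, beside 29.3% and 28.7%, and heart ECs 5 higher and 1 lower, beside 24.2% and 23.3%. Against ECs, lung iECs had 2 higher and 3 lower, beside 22.2% and 23%. Heart iECs had 1 higher and 5 lower than heart ECs, beside 24.5% and 24.4%. Ccnd1, of the same list of targets, was highest in heart ECs, at 624, 630 and 651 CPM. It had 247, 215 and 256 CPM in heart iECs and 162, 185 and 163 CPM in heart fibroblasts. Its log2 fold change in heart ECs against heart fibroblasts was 1.90 ± 0.15 (edgeR adjusted p = 2.14e-08). Igfbp4, a secreted binding protein that also inhibits Wnt receptors, had 69.5, 78.5 and 49.8 CPM in lung iECs and 781, 931 and 819.7 CPM in lung fibroblasts, and 106, 105 and 115 CPM in heart iECs and 407, 371 and 424 CPM in heart fibroblasts. It fell by 3.68 ± 0.16 in lung iECs (edgeR adjusted p = 2.49e-12) and fell by 1.88 ± 0.14 in heart iECs (edgeR adjusted p = 5.75e-09). Gpc3, a glypican of the cell surface, fell by 3.66 ± 0.31 in lung iECs (edgeR adjusted p = 1.25e-07) and fell by 3.65 ± 0.40 in heart iECs (edgeR adjusted p = 1.91e-06). Porcn, the enzyme that puts the lipid on Wnts, fell by 3.87 ± 0.23 in lung ECs (edgeR adjusted p = 7.13e-11) and fell by 2.10 ± 0.20 in heart ECs (edgeR adjusted p = 1.66e-07). It was also lower in iECs, at 4.27, 4.90 and 4.77 CPM in lung iECs against 20.6, 19.2 and 21.8 CPM in lung fibroblasts (log2 fold change −2.14 ± 0.20, edgeR adjusted p = 5.98e-08), and at 5.50, 6.55 and 7.64 CPM in heart iECs against 18.1, 16.9 and 19.5 CPM in heart fibroblasts (−1.47 ± 0.19, edgeR adjusted p = 4.45e-06). Prickle1, a polarity protein, fell by 2.65 ± 0.28 in lung iECs (edgeR adjusted p = 9.04e-07), and the lung change differed from the heart one by −2.62 ± 0.39 (edgeR adjusted p = 0.000127). Celsr1, a polarity cadherin of epithelia, was higher in the ECs of both organs than in fibroblasts. It had 6.86, 8.80 and 13.1 CPM in lung ECs against 0, 0.383 and 0.587 CPM in lung fibroblasts (log2 fold change 4.79 ± 0.57, edgeR adjusted p = 1.56e-06), and 4.79, 4.83 and 4.44 CPM in heart ECs against 0.157, 0.842 and 0.786 CPM in heart fibroblasts (2.98 ± 0.54, edgeR adjusted p = 0.000251). The 7 lung epithelial markers summed to 61.5 to 69.2 CPM in lung ECs and at most 0.403 CPM in heart ECs. The 6 mesothelial and epicardial markers summed to 355 to 521 CPM in heart ECs and 50.7 to 69.3 CPM in heart fibroblasts. In lung they summed to 202 to 322 CPM in ECs and 266 to 278 CPM in fibroblasts. The 5 lymphatic endothelial markers summed to 1156 to 1260 CPM in lung ECs and 328 to 366 CPM in lung fibroblasts. Among them Pdpn went the other way in lung, at 277 CPM in ECs and 317 CPM in fibroblasts. In heart the 5 summed to 723 to 826 CPM in ECs and 282 to 320 CPM in fibroblasts. The part of any of these sets in the Celsr1 values was not tested.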

How the data were processed

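The mRNA of 18 libraries was sequenced in bulk, 3 from each of 6 groups, extracted with RNeasy columns per the labels' protocols. The authors deposited a table of estimated counts per gene, whose values are whole numbers summing to 17747632 to 23775372 per library. Salmon, DESeq2 and the build mm10 are named in the submitters' processing notes, with versions, the summing of transcripts to genes and strand use not given in the sources used here. Groups were read from the sample titles. All columns of the table were used.

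The estimated counts were analysed as deposited, without rounding, in R 4.3.3 with edgeR 4.0.16. filterByExpr kept 14864 of 35727 identifiers. Libraries were scaled by TMM, and 1 robust quasi-likelihood model with a coefficient per group, with 12 residual degrees of freedom from all 18 libraries, gave 11 contrasts. P-values were adjusted by the Benjamini-Hochberg method within each contrast over all genes tested, at a threshold of 0.05. The SE given is the absolute log2 fold change divided by the square root of the F statistic of its test. It was derived from the test and not estimated by the fit, and with few counts it depends on the prior count. In each organ, iECs and ECs were set against fibroblasts and iECs against ECs. Lung was set against heart within iECs, ECs and fibroblasts. The difference between lung and heart in the change of iECs against fibroblasts, and that between iECs and ECs in the organ difference, completed the 11. Comparisons that use the same libraries are not independent of each other. Gene coordinates and exon lengths came from GENCODE M21 on GRCm38 and promoter windows from RefSeq on GRCm38.p6. The procedure was tested on simulated counts.

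The members and lists were chosen with earlier results of these data known. Genes named by rule were called, had groups that did not overlap, a log2 change of at least 2 and, in the higher group, at least 5 CPM. Where fewer than 3 qualified, the 3 largest with at least 1 CPM were taken. Axin2, Lef1, Tcf7, Nkd1, Notum, Apcdd1, Wnt2, Fzd4, Lrp5 and Lrp6 were always included. Up to 4 genes of the further list qualified per contrast, and only some of these are described. Other members were shown after their values were seen. Intervals of count ratios are exact at 95%, and with the floor of 3 counts they cover counting error only. Alternatives were RLE scaling, DESeq2 1.42.0, no filter, a filter of 5 CPM in 3 libraries, the compared groups alone, replicate number as a block, and each library left out.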

Additional observations from a re-analysis of the deposited data

Results flagged for a closer look

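A comparison appears here when the test of the difference itself was called for a member between the organs or between the cell types. The log2 fold change of iECs against fibroblasts differed between lung and heart for 16 members. Its value in lung minus that in heart was positive for Frzb (3.22 ± 0.12), Dkk3 (1.98 ± 0.24), Nkd2 (1.87 ± 0.20), Fzd2 (0.74 ± 0.17) and Lrp5 (0.50 ± 0.14). It was negative for Wnt2 (−5.60 ± 0.91), Dkk2 (−5.22 ± 0.49), Wnt4 (−3.73 ± 0.73), Tcf7 (−2.57 ± 0.75), Fzd1 (−1.67 ± 0.13), Ror1 (−1.60 ± 0.30), Wnt11 (−1.22 ± 0.38), Lgr4 (−1.17 ± 0.14), Fzd4 (−1.10 ± 0.15), Wnt5a (−0.85 ± 0.20) and Fzd6 (−0.70 ± 0.19). The calls of Tcf7 and Wnt11 were lost when 1 library was left out, Tcf7 without heart fibroblast replicate 1 or 2 (adjusted p of up to 0.0527) and Wnt11 without lung iEC replicate 1, heart iEC replicate 1 or 2, lung fibroblast replicate 1 or heart fibroblast replicate 2 or 3 (up to 0.0656). The difference for Wnt2 rests on a single count in heart fibroblasts and depends on the prior count.

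The log2 difference of lung against heart in iECs minus that in ECs was called for 20 members. It was positive for Rspo1 (5.40 ± 1.23), Dkk3 (3.44 ± 0.25), Rspo3 (3.11 ± 0.19), Frzb (2.36 ± 0.12), Nkd2 (2.05 ± 0.21), Sfrp1 (2.04 ± 0.19), Sfrp4 (1.99 ± 0.66), Nkd1 (1.52 ± 0.39), Ror2 (1.23 ± 0.23), Fzd1 (0.90 ± 0.13) and Fzd5 (0.60 ± 0.18). It was negative for Wnt7a (−7.34 ± 1.81), Wnt10b (−6.41 ± 1.70), Dkk2 (−5.95 ± 0.44), Wnt11 (−3.28 ± 0.37), Wnt2b (−3.15 ± 0.59), Wnt2 (−2.04 ± 0.54), Fzd4 (−1.98 ± 0.15), Wnt5a (−1.52 ± 0.19) and Fzd3 (−0.89 ± 0.27). The calls of Wnt2, Wnt7a, Wnt10b, Fzd3, Fzd5 and Sfrp4 were each lost on leaving out at least 1 library. Those libraries were lung iEC replicate 1 or 3, heart iEC replicate 2 or 3, lung EC replicate 1 or 2 or heart EC replicate 1 or 2 for Sfrp4 (adjusted p of up to 0.0791), lung iEC replicate 1, heart iEC replicate 3, lung EC replicate 2 or heart EC replicate 1 for Fzd3 (up to 0.0695), lung EC replicate 1 or heart EC replicate 1 for Fzd5 (up to 0.0563), heart iEC replicate 2 for Wnt10b (up to 0.0739), and heart iEC replicate 3 for Wnt2 and Wnt7a. Values of Wnt7a, Wnt10b and Rspo1 rest on groups with few counts.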

How the results depend on the processing

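Over 390 gene comparisons, calls were lost in 1 under RLE scaling, 1 under DESeq2, 10 with no filter on low counts, 13 with the compared groups fitted alone and 7 with replicate number as a block. Leaving out libraries cost more, since 50 of the 338 called ones were lost without at least 1 library. A filter of 5 CPM in 3 libraries removed low members. Under it the members called higher numbered 4 for heart ECs against heart fibroblasts (otherwise 10), 9 for lung ECs against lung fibroblasts (otherwise 14), 4 for lung against heart iECs (otherwise 7) and 9 for lung against heart ECs (otherwise 14). Leaving out each library in turn gave 4 to 8 members higher in lung iECs than in heart iECs. The replicate block gave 8 members higher in heart ECs than in heart fibroblasts and 5 higher in lung than in heart iECs. It ended the calls of Tcf7l2 in heart iECs against heart fibroblasts (adjusted p = 0.0562), Wnt4 and Lef1 in heart ECs against heart fibroblasts (0.0589 and 0.0656), Tcf7l2 in lung iECs against lung ECs (0.067), Wnt2b between fibroblasts (0.0556) and Fzd10 and Axin2 between iECs (0.0609 and 0.0553). Same-numbered libraries correlated at −0.59 to 0.21 after removing group means, with 6 of 45 pairs above 0.1 and 8 of 18 libraries closest to one of their own number, so the numbers were not taken as pairs. Signs turned only for genes without a call. For lung iECs against lung fibroblasts, Notum was −0.0055 with the replicate block and Tcf7 0.0087 with no filter. On leaving out libraries, log2 values in that comparison ranged over −0.073 to 0.14 for Lrp5, −0.99 to 0.73 for Notum and −0.22 to 0.23 for Tcf7. The difference of lung and heart changes spanned −0.32 to 0.030 for Lrp6 and −0.25 to 0.15 for Nkd1. ECs against fibroblasts gave −0.098 to 0.035 for Fzd1 and −0.0035 to 0.35 for Fzd3 in heart, and −0.25 to 0.52 for Axin2 in lung. Lung iECs against lung ECs gave −0.46 to 0.29 for Lef1 and −0.24 to 0.13 for Apcdd1. Lung against heart gave −0.19 to 1.21 for Notum in fibroblasts, −0.075 to 0.33 for Nkd1 and −0.36 to 0.019 for Apcdd1 in iECs, and −0.0058 to 0.85 for Axin2 in ECs. Their cause was not tested. Depth limits members near 1 CPM, which hold few counts in a library.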
